A study of Mus musculus with 50 samples.

Results

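The genes described here are 10 members of the klotho, phosphate and vitamin D axis, and were taken as the rows of the gene count files named Kl, Fgfr1, Slc34a1, Slc34a3, Slc20a1, Slc20a2, Vdr, Cyp24a1, Cyp27b1 and Trpv5. All 10 were found among the 24984 genes counted. Gene expression was measured by RNA-seq in 38 libraries of 10 groups, and open chromatin was mapped by ATAC-seq in 12 libraries of 4 groups. The kidney and liver came from C57BL/6 mice that were young (2.5 months) or old (23 to 25 months), with 4 RNA-seq and 3 ATAC-seq libraries for each tissue and age. A second series of RNA-seq libraries came from kidneys and livers of C57BL/6 mice aged 20 to 21 months that had received DMSO, a solvent, or a treatment named 3C (4 libraries per tissue and treatment). Skin fibroblasts labelled P9 received DMSO or 3C, with 3 libraries per treatment. What 3C contains is not given in the labels, and the methods state female mice. Nothing says that the libraries of a group came from separate animals or cultures, so p-values measure the spread between these libraries only.

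Phosphate balance is set mainly in the kidney. FGF23, a hormone made in bone, binds receptors such as FGFR1 together with klotho, which lowers the reabsorption of phosphate in the proximal tubule and the making of active vitamin D. Active vitamin D acts through the vitamin D receptor, induces its own breakdown by CYP24A1 and promotes calcium uptake in the distal tubule, where TRPV5 is the channel on the urine side. Loss of klotho in mice gives high phosphate and a syndrome that resembles early ageing.

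On GRCm38, Kl, the gene of klotho, lies at chr5:150952607-150993817, and Fgfr1, which encodes an FGF receptor, at chr8:25513654-25575718. Slc34a1 (NaPi-IIa), the main phosphate transporter of the proximal tubule, lies at chr13:55398187-55415592 and its relative Slc34a3 (NaPi-IIc) at chr2:25228898-25234364. Slc20a1 (PiT-1) at chr2:129198764-129211616 and Slc20a2 (PiT-2) at chr8:22476788-22569612 encode phosphate transporters found in most tissues. Vdr, the vitamin D receptor, lies at chr15:97854425-97910630, Cyp24a1, which inactivates vitamin D, at chr2:170482708-170497145, and Cyp27b1, which activates it, at chr10:127048250-127053006. Trpv5 lies at chr6:41652173-41680769. All are protein-coding genes of the GENCODE vM21 annotation. Reads were counted without regard to strand, and 11.7% of the exon length of Slc34a1 overlaps Pfn3 on the opposite strand, so that reads of that stretch cannot be told apart. Overlaps on the opposite strand covered 1.53% to 2.33% of the exons of Fgfr1 (Gm16159), Slc20a2 (Smim19) and Cyp24a1 (Pfdn4).

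The RefSeq promoter table of GRCm38.p6 held 7 of the 10 genes (all but Cyp24a1, Fgfr1 and Slc20a2), and 4 stretches of 250 bases before the start are shown. Kl and Slc34a1 are shown as the genes that fell in old kidney, Trpv5 as the gene with a motif match, and Slc20a1 as a gene with counts in every group. Each reads 5′ to 3′ toward the start, and capitals mark a TATAAA match. The RefSeq starts of Slc34a1, Trpv5 and Slc20a1 lie inside the GENCODE spans of these genes, and the marked match of Trpv5 therefore falls within the annotated gene.
Kl (chr5:150952357-150952606, plus strand): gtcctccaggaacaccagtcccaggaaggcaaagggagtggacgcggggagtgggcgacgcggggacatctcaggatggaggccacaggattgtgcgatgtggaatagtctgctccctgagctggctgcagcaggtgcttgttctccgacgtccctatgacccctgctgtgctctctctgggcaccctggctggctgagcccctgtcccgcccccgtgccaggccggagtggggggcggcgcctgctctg
Slc34a1 (chr13:55399398-55399647, plus strand): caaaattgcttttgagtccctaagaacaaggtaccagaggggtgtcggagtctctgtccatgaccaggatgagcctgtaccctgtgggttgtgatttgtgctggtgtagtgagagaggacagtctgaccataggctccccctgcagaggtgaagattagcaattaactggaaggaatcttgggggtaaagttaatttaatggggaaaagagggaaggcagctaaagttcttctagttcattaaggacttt
Trpv5 (chr6:41680724-41680973, minus strand): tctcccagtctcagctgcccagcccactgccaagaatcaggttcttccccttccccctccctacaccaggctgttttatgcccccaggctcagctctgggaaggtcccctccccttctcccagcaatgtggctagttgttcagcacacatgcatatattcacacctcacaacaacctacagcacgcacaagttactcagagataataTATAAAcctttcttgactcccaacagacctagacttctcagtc
Slc20a1 (chr2:129198523-129198772, plus strand): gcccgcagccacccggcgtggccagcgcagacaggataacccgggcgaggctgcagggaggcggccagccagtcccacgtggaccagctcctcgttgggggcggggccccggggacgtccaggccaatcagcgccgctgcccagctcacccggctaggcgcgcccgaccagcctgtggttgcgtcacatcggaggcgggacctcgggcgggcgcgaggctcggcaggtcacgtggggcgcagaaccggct
The promoters differed widely in base composition, with 66.8% G and C for Kl, 46.4% for Slc34a1, 51.6% for Trpv5 and 75.2% for Slc20a1, beside a median of 52.4% over all 32851 promoters of the table. On both strands of the 8 promoter entries of these genes, the AP-1 core TGANTCA, the HNF1 site, the DR3 type of vitamin D response element and TATAAA were sought. The single match was TATAAA in Trpv5, at bases -43 to -38 from the start. Of all promoters of the same length, 12.4% held TATAAA, 6.75% TGANTCA, 0.0609% the HNF1 site and 0.0396% the DR3 element. The other letters were not found in these windows, which says nothing of binding farther away.

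The total count of an RNA-seq library was 14.2 to 43.7 M. The tissue labels were checked with marker genes: the summed level of 9 hepatocyte markers was at least 86348 CPM (counts per 1000000 counts of a library) in every liver library, and at most 187 CPM in all kidney libraries other than old kidney replicate 2. That library held 4089 CPM, and its albumin transcript (Alb) reached 3.58% of the mean of old liver. The fold changes and ratios of the 10 genes in old kidney are therefore also given without it. In liver, replicate 4 with 3C held 57 counts of Slc34a1 and 5.36 CPM of loop of Henle markers, where the other 3 libraries of its group held 0 to 12 counts and at most 0.740 CPM. The untreated and the DMSO and 3C libraries were deposited with different tallies of uncounted reads, so levels of these series are set side by side without a test.

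Kidney stood out among the 3 sources for 7 of the 10 genes. Kl, Slc34a1, Slc34a3, Vdr, Cyp24a1, Cyp27b1 and Trpv5 were measured in every kidney library, and in liver they had between 0 and 72 counts summed over the 4 libraries of a group. In bulk tissue, fewer cells of a type and less RNA per cell cannot be told apart. Slc34a3 and Trpv5 had no count in any of the 16 liver and 6 fibroblast libraries. Levels between genes are compared as CPM per kilobase of exon. In young kidney, Slc34a1 stood at 926 ± 84.1 CPM per kb (SD, n = 4), rank 24 of 24534 genes. Far below it came Kl (88.1 ± 17.2 CPM per kb), Vdr (49.1 ± 3.86), Cyp24a1 (46.5 ± 15.6) and Slc34a3 (45.1 ± 4.79), and the libraries of the last 3 overlapped. The widely expressed transporters were lower, Slc20a2 at 8.77 ± 0.926 and Slc20a1 at 4.73 ± 0.529 CPM per kb, with Trpv5 at 6.76 ± 1.39 and Fgfr1 at 5.67 ± 0.456. Cyp27b1, the activating enzyme, was the lowest of the 10 in young kidney at 1.03 ± 0.306 CPM per kb, 16 to 119 counts per library in untreated kidney.

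**Figure D1:**
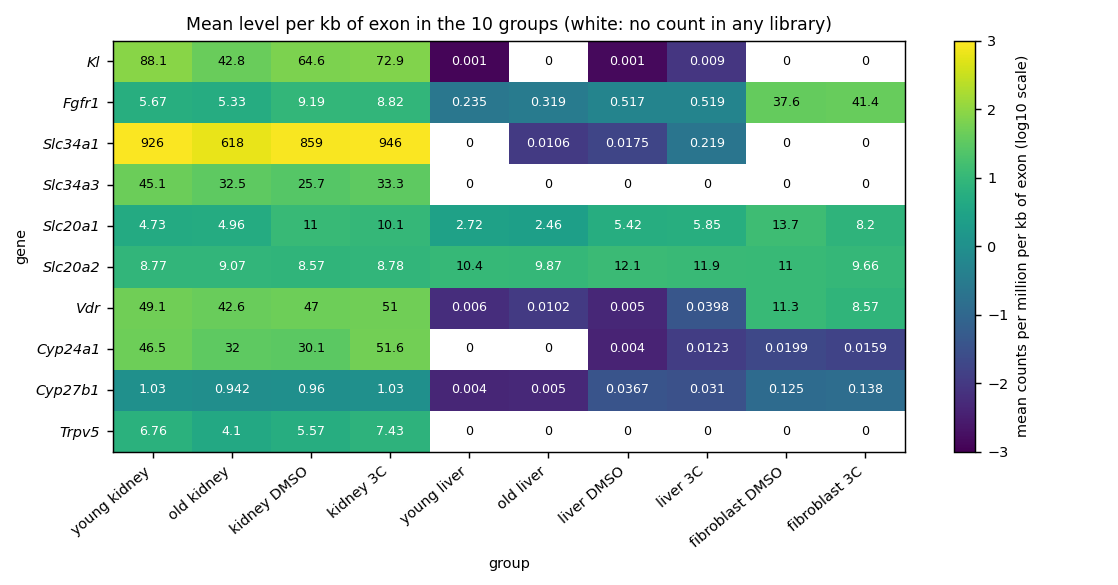
Mean level of each gene in the 10 groups, in CPM per kb of exon, with colour on a log10 scale. The 4 kidney columns hold values for all 10 genes, from 0.942 for Cyp27b1 in old kidney to 946 for Slc34a1 in kidney with 3C, whereas Slc34a3 and Trpv5 are at 0 in all liver and fibroblast columns.

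Young kidney was compared with young liver in a joint fit of the 16 untreated libraries, in which 61.5% of 15036 genes passed an adjusted p under 0.05 (edgeR quasi-likelihood test, Benjamini-Hochberg adjusted). Of all genes 34.4% were higher and 27.2% lower in kidney, and of the 10 genes 8 were higher and 1, Slc20a2, was lower. Sizes are given from the summed counts relative to library totals, with 3 counts over the group as the floor where liver had none, and with intervals that cover counting error only. Slc34a1 was at least 127549-fold higher in young kidney, Cyp24a1 at least 4659-fold, Slc34a3 at least 3098-fold and Trpv5 at least 646-fold. Kl had 1 count in young liver, so its ratio of 73288 has a wide 95% counting interval, 13153 to 2894790. The receptor Vdr had 3 counts there, for a ratio of 8102 (2772 to 39293), and Cyp27b1 had 1 count, for a ratio of 240 (42.6 to 9538). Fgfr1 was present in liver at a low level, 24.3 times below kidney by these totals (21.1 to 28.2). In the TMM-scaled fit the fold was smaller, 11.4 (log2 fold change 3.52, SE 0.22, adjusted p 6.56e-10), and the sizes above are likewise on the scale of library totals.

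The PiT transporters behaved differently across tissues. Slc20a2 was lower in young kidney than in young liver by TMM-scaled fit (log2 fold change -1.31, SE 0.19, adjusted p 1.15e-05), while its plain CPM overlapped, at 46.6 to 60.2 in kidney and 45.7 to 81.5 in liver. The same fit on the DMSO libraries gave -1.51 (SE 0.13), where 71.7% of 15526 genes passed (38.9% higher and 32.8% lower) and 9 of the 10 passed in the same directions. Slc20a1 did not pass in either (log2 fold change -0.27, 95% interval -0.70 to 0.16 in the young, and 0.05, -0.67 to 0.78, with DMSO). In plain CPM it was higher in young kidney, at 22.0 to 28.4 beside 9.64 to 19.3 in young liver without overlap, so its direction in the young turned with the scaling. With DMSO its plain CPM was 61.2 ± 9.46 in kidney and 30.2 ± 15.3 in liver (SD, n = 4). In the order of plain CPM, Slc20a2 ran from 75.3 ± 8.33 (liver with DMSO) to 53.3 ± 1.32 (kidney with DMSO), and the libraries of every pair of neighbours in that order overlapped.

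Fibroblasts differed from both organs. Fgfr1 was highest there, at 371 ± 70.3 CPM (SD, n = 3) with DMSO and 409 ± 75.7 CPM with 3C, and no kidney library exceeded 93.4 CPM. Vdr was present at 63.7 ± 13.8 CPM with DMSO, between the kidney groups (241 to 288 CPM in the mean) and liver, where no library exceeded 0.343 CPM. Kl and Slc34a1 had no count in any fibroblast library. Over 3 libraries the fibroblasts had 5 counts of Cyp24a1 with DMSO and 3 with 3C, and 21 and 18 counts of Cyp27b1. Tissues and cells of these series were not tested against the fibroblasts.

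The comparison of old with young kidney asks which steps of the axis differ with age. Klotho and the main phosphate transporter were lower in old kidney, and none of the 10 genes passed as higher. Kl fell to about 0.476 of its young level (log2 fold change -1.07) and Slc34a1 to 0.655 (log2 fold change -0.61), and these 2 passed. Over all 14495 genes tested, 11.5% passed, and 3.36% were lower. These 1669 genes, 487 of them lower, became 3440 of 14519 with 1770 lower without old kidney replicate 2, and 833 of 14633 with 138 lower without young kidney replicate 2. Of the 10 genes, 3 passed in the former fit and 1 in the latter. The median log2 fold change of the 10 genes was -0.36, with 8 below 0, beside a median of 0.02 over all genes.

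Kl, whose protein is the FGF23 co-receptor, stood at 961, 955, 727 and 646 CPM in the 4 young kidneys and at 371, 534, 340 and 352 CPM in the 4 old ones. All old libraries were below all young ones, and the highest old library was replicate 2. The log2 fold change was -1.07 (SE 0.16, 95% interval -1.43 to -0.71, adjusted p 0.00322). Without old kidney replicate 2 it was -1.21 (adjusted p 0.00161). Kl also passed the added condition of a more than 2-fold change, which 6.08% of genes met (0.407% as a fall). Leaving out 1 library moved the log2 fold change of Kl between -1.21 and -0.998. At the latter value that condition was not met.

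Slc34a1, the NaPi-IIa transporter, stood at 4749, 4336, 3804 and 4438 CPM in young and at 2840, 3076, 3087 and 2555 CPM in old kidney, with no overlap. Its log2 fold change was -0.61 (SE 0.13, 95% interval -0.90 to -0.32, adjusted p 0.0161). The call was lost without young kidney replicate 2 (adjusted p 0.0508) and without old kidney replicate 4 (adjusted p 0.0516), at log2 fold changes of -0.63 and -0.53, and it was kept without old kidney replicate 2 (-0.61, adjusted p 0.0219). Slc34a3, the NaPi-IIc transporter, had 99.1, 99.0, 104 and 123 CPM in young and 83.4, 63.3, 96.9 and 62.9 CPM in old kidney. These libraries too did not overlap, yet the gene did not pass (log2 fold change -0.49, SE 0.19, adjusted p 0.126). Without old kidney replicate 3 it passed (-0.67, adjusted p 0.0410), and without replicate 2 it did not (-0.39, adjusted p 0.155). In all, 3 of the 10 genes did not overlap between ages, and so did 17.3% of all genes tested.

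The log2 ratio of Slc34a1 to Slc34a3 counts within a library does not depend on the library scale. It was 5.35 ± 0.200 in the young group and 5.26 ± 0.273 in the old group (SD, n = 4), a difference of -0.09 (exact permutation p 0.571, adjusted over 6 ratios 0.8286), so no shift of balance between the proximal transporters was detectable. The smallest p that 4 against 4 libraries allow is 0.0286. The PiT transporters lay close to their young level: log2 fold changes were 0.04 for Slc20a1 (95% interval -0.21 to 0.30) and 0.01 for Slc20a2 (-0.27 to 0.29). Without old kidney replicate 2 they were 0.07 and -0.09. The log2 ratio of Slc20a1 to Slc20a2 was -1.05 ± 0.0736 in young and -1.01 ± 0.254 in old kidney (exact permutation p 0.771, adjusted 0.8286). Without that library the difference was -0.21 for the ratio of Slc34a1 to Slc34a3 (exact permutation p 0.229) and 0.16 for that of Slc20a1 to Slc20a2 (exact permutation p 0.114).

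In the vitamin D genes no difference passed. Vdr had 292, 283, 289 and 245 CPM in young and 251, 270, 203 and 239 CPM in old kidney (log2 fold change -0.23, 95% interval -0.46 to -0.01, adjusted p 0.156, and -0.26 without old kidney replicate 2). Cyp24a1, a target of the receptor, varied far more between libraries, with 192, 112, 231 and 127 CPM in young and 123, 181, 51.8 and 98.8 CPM in old kidney. Its log2 fold change was -0.59 (SE 0.33, adjusted p 0.254), and -0.87 (adjusted p 0.0636) without old kidney replicate 2. Cyp27b1 had 2.13, 3.70, 1.97 and 2.80 CPM in young and 1.63, 0.661, 4.69 and 2.72 CPM in old kidney, and the interval of its log2 fold change was wide (-0.13, -1.30 to 1.03). Without old kidney replicate 2 the value of Cyp27b1 turned to 0.19 (adjusted p 0.753).

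Among the old kidneys the activating and the inactivating enzyme were at opposite ends of the same libraries. Replicate 3 had the lowest Cyp24a1 and the highest Cyp27b1, and replicate 2, the library with hepatocyte transcripts, the highest Cyp24a1 and the lowest Cyp27b1. The log2 ratio of Cyp24a1 to Cyp27b1 counts was 5.93 ± 0.888 in young libraries and 5.73 ± 1.92 in old ones, a difference of -0.20 that was smaller than the spread of either group (exact permutation p 0.8286, adjusted 0.8286). Its sign depended on single libraries: the difference was -0.98 without old kidney replicate 2 (exact permutation p 0.343), 0.55 without old kidney replicate 3 (exact permutation p 0.629) and 0.10 without young kidney replicate 3 (exact permutation p 0.971). Fgfr1, a receptor of FGF23, did not pass (log2 fold change -0.13, 95% interval -0.46 to 0.20, adjusted p 0.573, and -0.23 without old kidney replicate 2), and its old libraries spread from 34.8 to 66.3 CPM around the young range of 50.5 to 61.5 CPM.

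Trpv5, the calcium channel of the distal tubule, had 22.7, 26.1, 23.3 and 15.5 CPM in young and 10.1, 17.9, 8.31 and 16.9 CPM in old kidney. A single young library, replicate 4, lay within the old range. The log2 fold change was -0.76 (SE 0.23, 95% interval -1.27 to -0.25) at an adjusted p of 0.0584, just above the threshold. It passed in 4 of 14 alternatives, among them leaving out old kidney replicate 2 (-0.90, adjusted p 0.0215) and young kidney replicate 4 (-0.88, adjusted p 0.0383). Over these alternatives the adjusted p ran from 0.00893 to 0.165.

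**Figure D2:**
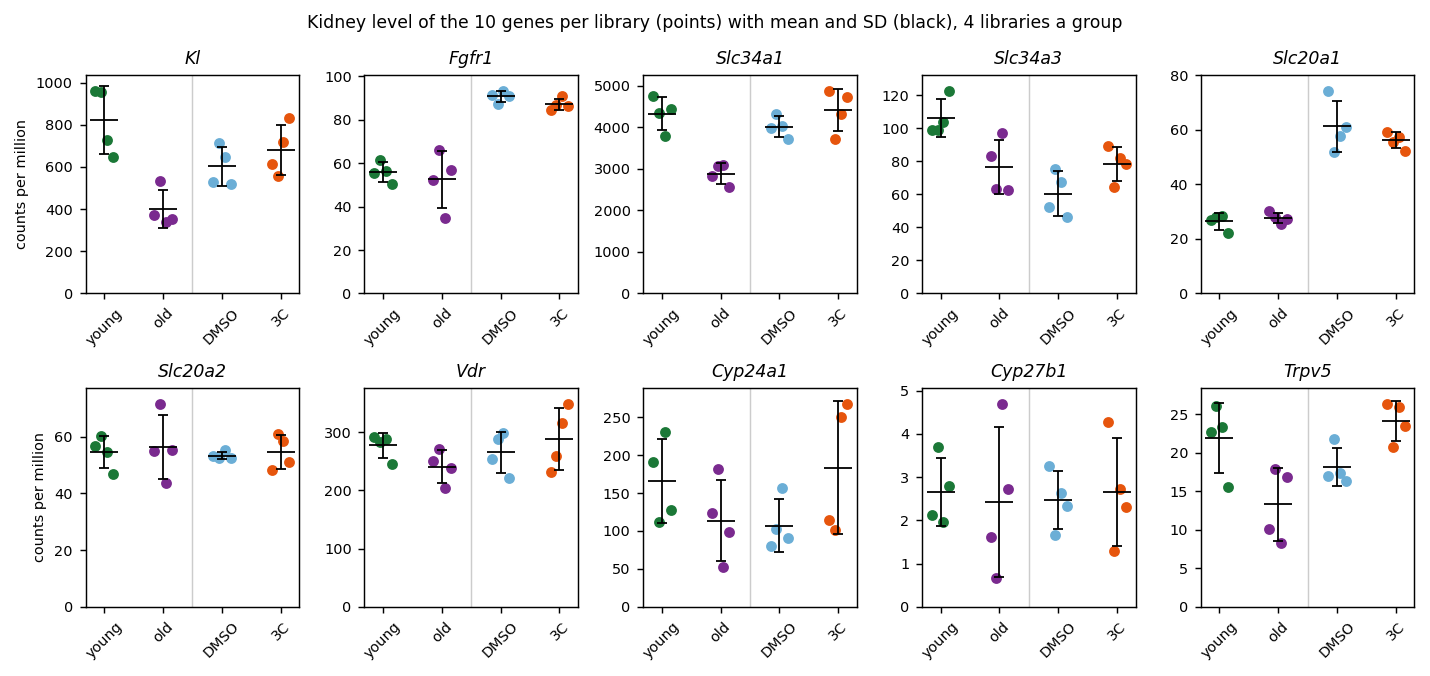
Level of each gene in the 16 kidney libraries, in CPM on linear axes from 0, with the mean and SD of each group in black. The old libraries of Kl and Slc34a1 lie below all young ones, and with DMSO or 3C no gene separates.

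Other genes of the axis were counted from 4 lists, of which 58 of 60 genes were in the table and 52 could be tested in the kidney age comparison. Of these, 6 passed, 3 higher and 3 lower, a share close to the 11.5% of all genes. Calb1 (calbindin), the carrier of calcium through distal tubule cells, fell from 747 ± 141 to 366 ± 90.8 CPM (SD, n = 4; log2 fold change -1.05, SE 0.21, adjusted p 0.0109). Egf, made in the distal nephron and a stimulus of magnesium uptake, fell from 2840 ± 279 to 1705 ± 275 CPM (-0.77, SE 0.13, adjusted p 0.00483). Xpr1, which exports phosphate from cells, fell by 0.72 on the log2 scale (SE 0.19, adjusted p 0.0346). The genes that rose, with log2 fold changes in parentheses, were Stc1 (1.06, SE 0.23, adjusted p 0.0179), a stanniocalcin with a part in phosphate and calcium handling, Rxrg (1.38, SE 0.31, adjusted p 0.0207), a partner of nuclear receptors, and Cldn19 (0.49, SE 0.11, adjusted p 0.0206), a tight junction protein of the loop of Henle.

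By list, the 13 tested genes of renal calcium and magnesium handling had a median log2 fold change of -0.44, with 1 higher and 2 lower. The 13 genes of FGF23 and klotho signalling had a median of -0.14 and none passed. The 14 genes of phosphate handling (0.07) and the 12 of vitamin D metabolism and action (0.07) had medians near that of all genes. The count of 6 moved with single libraries, and so did the count over all genes. Leaving out old kidney replicate 2 gave 14 (3440 over all genes) and young kidney replicate 4 gave 11 (2113), whereas 3 passed when young kidney replicate 2 (833) or old kidney replicate 1 (1231) was dropped and 2 when young kidney replicate 3 was (921). Of the named genes, Calb1 and Egf passed in all 8 of these fits, Stc1 and Rxrg in 6, Cldn19 in 3 and Xpr1 in 2. The adjusted p values where a call was lost ran from 0.0526 (Stc1 without young kidney replicate 2) to 0.110 (Xpr1 without the same library).

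Markers of cell types in the kidney were compared as well. Of 8 proximal tubule markers 3 fell (Slc5a2, Slc5a12 and Slc13a3), and their summed level was 6764 to 8085 CPM in old and 8657 to 10811 CPM in young kidney. Of 4 distal convoluted tubule markers only Calb1 fell, the gene already named above from the calcium list. The distal sums overlapped, at 999 to 1509 CPM in old and 1437 to 1839 CPM in young. Of 4 loop of Henle markers 0 passed, and of 6 collecting duct markers 1 fell. Macrophage (7 of 7), B and plasma cell (5 of 5) and T cell (5 of 5) markers rose, with macrophage sums of 627 to 1447 CPM in old and 133 to 155 CPM in young. No proximal tubule marker was at 0 in kidney. The part of these shifts in the fall of Kl and Slc34a1 was not tested.

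The second comparison asks whether 3C changes these genes in the kidney of mice aged 20 to 21 months. None of the 10 genes passed, and 0% of 14974 genes did (edgeR). No member had groups that did not overlap, beside 7.07% of genes. Unadjusted, 1786 genes had a p under 0.05, among them Trpv5, Slc34a3 and Cyp24a1, all above 0 with 3C. DESeq2 called 221 genes, and of the 10 it called Trpv5 higher (adjusted p 0.0341). Trpv5 had 17.0, 21.7, 17.3 and 16.3 CPM with DMSO and 26.3, 20.7, 25.9 and 23.5 CPM with 3C, and a single library of each group lay in the range of the other. Its log2 fold change was 0.45 (SE 0.11, 95% interval 0.20 to 0.70, adjusted p 0.208).

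Cyp24a1 varied widely among the libraries with 3C. It had 79.6, 102, 157 and 90.3 CPM with DMSO, and 115, 101, 251 and 268 CPM with 3C, where replicates 3 and 4 exceeded every DMSO library and replicates 1 and 2 did not (log2 fold change 0.81, SE 0.32, adjusted p 0.353). Vdr was also highest in replicates 3 and 4 with 3C, at 316 and 348 CPM, beside 231 and 259 CPM in the other libraries with 3C and 221 to 298 CPM with DMSO (log2 fold change 0.15, 95% interval -0.13 to 0.43). Slc34a3 had a mean of 60.5 ± 13.5 CPM with DMSO and 78.4 ± 10.5 CPM with 3C and did not pass (log2 fold change 0.41, SE 0.15, adjusted p 0.327).

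For Kl the DMSO libraries held 530, 713, 646 and 520 CPM and the 3C libraries 613, 558, 718 and 830 CPM, which overlapped (log2 fold change 0.21, 95% interval -0.09 to 0.50, adjusted p 0.588). Slc34a1 gave 0.17 (-0.05 to 0.40), Slc20a1 -0.10 (-0.32 to 0.13), Slc20a2 0.06 (-0.09 to 0.22), Fgfr1 -0.03 (-0.13 to 0.08) and Cyp27b1 0.12 (-0.65 to 0.89). The interval was narrowest for Fgfr1 and widest for Cyp27b1. Leaving out 1 library moved the log2 fold change of Kl between 0.095 and 0.30 and that of Slc34a1 between 0.11 and 0.25. No ratio passed. For Cyp24a1 to Cyp27b1 the log2 difference was 0.68 (exact permutation p 0.257), for Slc34a1 to Slc34a3 -0.26 (0.143) and for Slc20a1 to Slc20a2 -0.14 (0.343), all at 0.686 after adjustment over 6 ratios.

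The signs of the 10 genes with 3C were mostly opposite to those with age. The libraries of both comparisons are distinct, and 7 of the 8 genes below 0 in old against young kidney were above 0 in 3C against DMSO. Over all 14348 genes tested in both comparisons the sign was opposite in 64.8%, and 67.2% of the genes below 0 with age were above 0 with 3C. The median log2 fold change of the 10 genes with 3C was 0.16, beside 0.00 over all genes. No gene of the 53 tested in the pathway lists passed. All 7 tested markers of proximal tubule were above 0 and all 7 of fibroblasts and pericytes below 0 with 3C (sums of 287 to 497 CPM with 3C and 569 to 731 CPM with DMSO), as were all 7 of macrophages (326 to 539 and 549 to 624 CPM). All tested podocyte (4), endothelial (5), B and plasma cell (5) and T cell (5) markers were below 0 as well. Loop of Henle, distal convoluted tubule and collecting duct markers went both ways. None of them passed, and their part in these values was not tested.

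**Figure D3:**
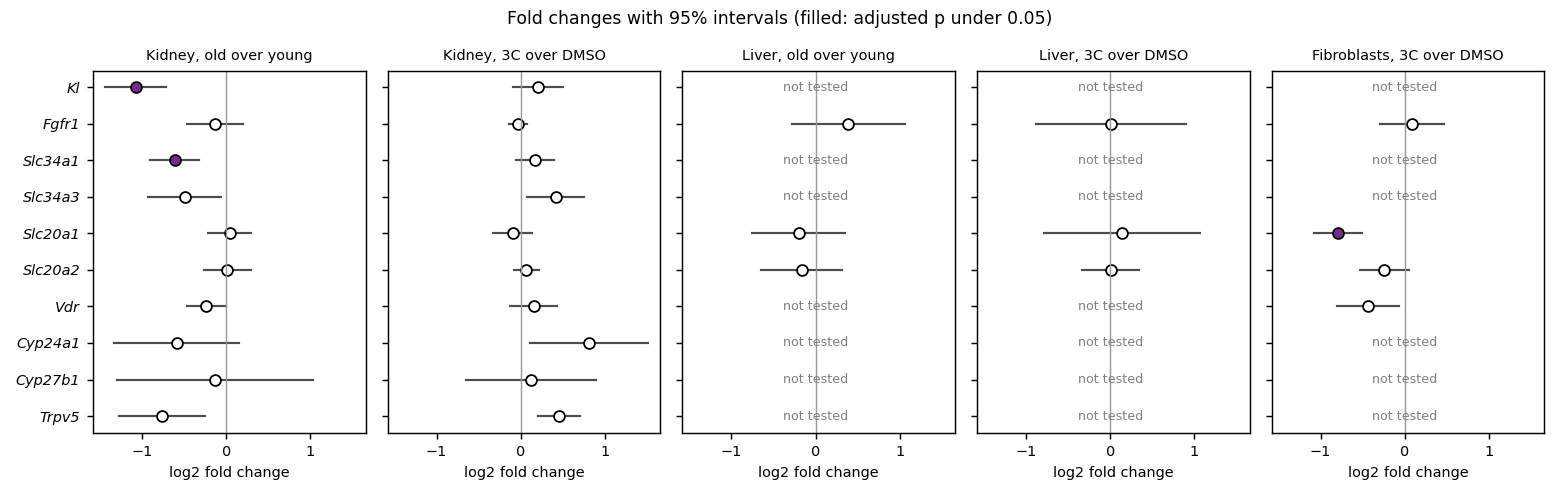
Log2 fold changes of the 10 genes in the 5 RNA-seq comparisons, with 95% intervals as lines and filled points where the adjusted p was under 0.05. Kl and Slc34a1 in old kidney and Slc20a1 in fibroblasts with 3C are filled, and genes with too few counts are marked as not tested.

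In liver only Fgfr1, Slc20a1 and Slc20a2 had enough counts to be tested. With age none passed, where 2.46% of 12537 genes did and 9.18% did not overlap (none of the 3). The log2 fold changes were 0.39 for Fgfr1 (95% interval -0.28 to 1.06), -0.20 for Slc20a1 (-0.75 to 0.35) and -0.16 for Slc20a2 (-0.64 to 0.32). Without 1 library Fgfr1 ran from 0.23 to 0.56, Slc20a1 from -0.41 to -0.057 and Slc20a2 from -0.28 to -0.0068. None of the 3 was under 0.05 unadjusted, and DESeq2 called none. Old liver replicate 1 had the lowest Slc20a2 at 32.3 CPM, and the other old libraries held 53.7 to 81.7 CPM. The difference between the age effects of kidney and liver did not pass for these genes, at -0.57 for Fgfr1 (SE 0.29, adjusted p 0.411), 0.21 for Slc20a1 (SE 0.29) and 0.13 for Slc20a2 (SE 0.26), where 1.72% of 15036 genes passed.

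With 3C in liver 0% of 13042 genes passed by edgeR, 436 had an unadjusted p under 0.05 and DESeq2 called 7, none of them among the 10. No overlap was seen in 1.79% of genes and in none of the 3. The values of Fgfr1 and Slc20a1 with 3C rested on replicate 1. Fgfr1 had 10.3 CPM in that library and 3.29 to 3.53 CPM in the other 3, and Slc20a1 had 71.2 CPM beside 17.3 to 22.0 CPM. With DMSO, Slc20a1 also had its highest level in replicate 1 (52.0 CPM, beside 16.8 to 28.9 CPM), and Fgfr1 in replicate 2 (7.87 CPM). The log2 fold changes were 0.01 for Fgfr1 (95% interval -0.88 to 0.90), 0.14 for Slc20a1 (-0.78 to 1.07) and 0.00 for Slc20a2 (-0.34 to 0.35). Leaving out 1 library at a time moved Fgfr1 between -0.53 and 0.29 and Slc20a1 between -0.53 and 0.48. The difference between the 3C effects of kidney and liver was -0.03 for Fgfr1 (SE 0.40), -0.22 for Slc20a1 (SE 0.49) and 0.08 for Slc20a2 (SE 0.18), and in that test 0% of 15526 genes passed (554 at an unadjusted p under 0.05, and none by DESeq2).

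In skin fibroblasts 4 of the 10 genes had enough counts, and 1 passed. Slc20a1, the PiT-1 transporter, had 73.6, 83.0 and 73.2 CPM with DMSO and 41.5, 52.6 and 43.1 CPM with 3C, and all treated libraries lay below all DMSO libraries. It fell with a log2 fold change of -0.79 (SE 0.13, 95% interval -1.07 to -0.51, adjusted p 0.00837), and passed in all 12 alternatives of the test (adjusted p 1.30e-05 to 0.0438), though not with a fold above 2 as a further condition. Over all 13449 genes 4.22% passed (1.78% lower, and 1.87% at a fold above 2), and 25.8% had groups that did not overlap. The related Slc20a2 had 62.5, 69.3 and 73.6 CPM with DMSO and 69.8, 60.8 and 49.6 CPM with 3C, which overlapped (log2 fold change -0.24, 95% interval -0.53 to 0.04).

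Vdr had 51.9, 78.8 and 60.3 CPM with DMSO and 45.7, 57.2 and 42.3 CPM with 3C (log2 fold change -0.44, SE 0.17, adjusted p 0.168), and Fgfr1 gave 0.09 (95% interval -0.29 to 0.46). Of the 35 pathway genes tested, Cyp27a1, an enzyme that hydroxylates vitamin D and bile acid precursors, rose by 0.70 on the log2 scale (SE 0.17, adjusted p 0.0454), and Galnt3, the enzyme that protects FGF23 from cleavage, fell by 2.36 on that scale (SE 0.45, adjusted p 0.0171) from a low level of 1.95 ± 0.785 CPM. The call of Cyp27a1 was lost whichever library was left out, and that of Galnt3 without DMSO replicate 3 or 3C replicate 2. Macrophage markers were also lower with 3C, 2 of 6 passing, at sums of 112 to 169 CPM against 276 to 358 CPM, and their part in these differences was not tested.

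Across the 16 kidney libraries some of these genes varied together. The measure was Pearson's r of log2 CPM after the mean of each library series was taken off, as a description over 16 libraries that share depth and group differences. Old kidney replicate 2, the library with hepatocyte transcripts, was kept here, and r and rho were not computed without it. Among the old kidneys it had the lowest Cyp27b1 and the highest Slc20a2, Fgfr1, Cyp24a1, Vdr, Kl and Trpv5. Kl went with Slc34a1 (r 0.88, Spearman's rho 0.89) and Trpv5 (r 0.81, rho 0.79), Cyp24a1 with Vdr (r 0.85, rho 0.89), and Fgfr1 with Slc20a2 (r 0.80, rho 0.72). Cyp27b1 ran against Slc20a2 (r -0.71, rho -0.47) and weakly against Cyp24a1 (r -0.38, rho -0.34).

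Among 14073 genes, the 3 most like Kl were Osbpl6, Nnt and Ndufs1 (r 0.96 for each), and those most like Slc34a1 were Agxt2, Sord (both 0.96) and Slc18a1 (0.94). Slc34a3 went with Atp6v1c2 (0.91), Gabarapl1 and Smpdl3a (both 0.89), and Trpv5 with Kcnj15 (0.96), Ocln and Atp6v1a (both 0.95). Vdr was nearest to Gatm, Exoc6 (both 0.89) and Slc16a10 (0.87). For Cyp24a1 the nearest genes were Col8a1 (0.87), Acsl1 and Vdr (both 0.85), and the receptor was thus among the 3. Fgfr1 went with Cdc42bpg (0.97), Prkcd (0.96) and Llgl1 (0.95). The lowest likeness was found for Cyp27b1 (Dmac2, Vipas39 and Mtch2, 0.79 to 0.80) and Slc20a1 (Pomgnt2, Cry1 and Ccdc97, 0.75 to 0.83).

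Peaks of open chromatin, called by the authors in each ATAC-seq library, were sought within 1 kb of the start sites. All 10 genes had such a peak in all 3 young and all 3 old kidney libraries, where 65.1% and 63.3% of 20636 coding genes did. The count depended on the window and the threshold, with 7 in young and 6 in old kidney within 250 bases, and 8 and 7 at −log10 q values from 5 up. With the same number of top peaks (93072) from every library it was 9 in young and 10 in old kidney. In liver 5 of the 10 (Fgfr1, Slc20a1, Slc20a2, Vdr and Cyp24a1) had one in every library of both ages, beside 59.1% and 58.9% of genes. At −log10 q values from 5 up, 3 did at each age. Cyp24a1 was then lost at both ages, Slc20a1 in young and Vdr in old liver. Slc34a1, Slc34a3 and Trpv5 had none in any of the 6 liver libraries, and Kl had one in 2 of 3 young and in 0 of 3 old liver libraries. Vdr and Cyp24a1 thus had promoter peaks in liver, with mean top enrichments of 5.10 ± 0.458 and 4.60 ± 0.936 in young liver (SD, n = 3), where their RNA was at 3 and 0 counts over 4 libraries.

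The fold enrichment over background of the strongest promoter peak did not overlap between ages at 4 genes in kidney. At Kl it was 6.94, 5.59 and 4.95 in the young and 4.42, 3.92 and 4.94 in the old libraries, so the groups just failed to overlap. Fgfr1 (8.95 ± 0.830 in young, 6.91 ± 0.611 in old) and Cyp27b1 (3.72 ± 0.355 and 2.51 ± 0.0596) were lower in every old library, and Slc20a1 (6.63 ± 2.02 and 9.87 ± 0.509) was higher. These were 4 of the 10 genes, and 25.1% of the 12790 genes with a peak in all 6 libraries did not overlap either (8.58% lower and 16.5% higher in old). In liver, 2 of the 5 did not overlap (Vdr lower and Fgfr1 higher in old), beside 14.0% of genes. The strongest peak was taken in each library on its own, so it was not always the same peak. At Cyp27b1 its summit lay 530 to 1716 bases after the start in young and 416 to 797 in old kidney. The −log10 q values of Cyp27b1 in old kidney were 2.02 to 2.63. At Trpv5 in kidney the summit ran from -1111 to 1035 bases from a start. With 3 libraries a group an exact test cannot go below 0.1, and no test was made. Young kidney libraries held 115836 to 128395 peaks and old ones 93072 to 108970, and the part of that difference was not tested. Slc34a1, with the highest RNA level of the 10, had weak promoter peaks, from 1.97 to 4.70 in young and from 2.24 to 3.69 in old kidney, and its mean in young kidney (2.95 ± 1.52) was the lowest of the 10.

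**Figure D4:**
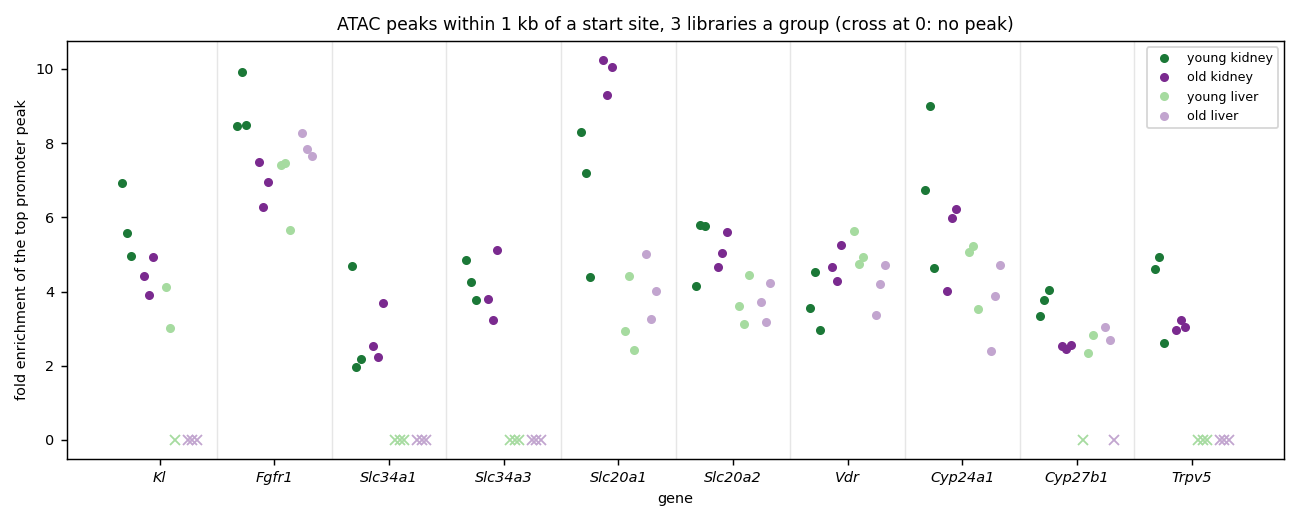
Fold enrichment of the strongest ATAC peak within 1 kb of a start site of each gene, per library, with crosses at 0 for libraries without a peak. Every kidney library has a peak at all 10 genes, and the liver libraries have none at Slc34a1, Slc34a3 and Trpv5.

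Over the gene bodies and 5 kb before them, the kidney peaks merged into 103 regions, of which 34 (33.0%) were found in all 6 libraries, beside 17.8% of all 255698 kidney regions. The latter lie anywhere in the genome, also between genes, so these shares come from unlike sets. A single region, in Fgfr1 at chr8:25521520-25522082, had a peak in all old and no young library, and a single one, in Slc20a2 at chr8:22510942-22511258, the reverse. Of all kidney regions 0.323% and 1.52% did so. No region of Kl, Slc34a1 or Trpv5 was gained or lost in this way. In liver none of 70 regions at these genes was gained or lost, where 0.543% and 0.985% of all 353652 liver regions were.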

How the data were processed

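The deposited RNA-seq values are counts, whole reads per gene, which the authors obtained with HTSeq 0.12.4 (no strand setting) after alignment by HISAT2 2.2.1 to mm10 and trimming by Trimmomatic 0.39. For ATAC-seq the authors aligned with Bowtie2 and called peaks per library with MACS2. The deposited lists give each peak's enrichment as a ratio (fold) over background and its −log10 p and −log10 q. Groups came from the labels. The genes, lists and tests were chosen with earlier results of these data known.

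Each comparison was fitted over all genes in edgeR 4.0.16 (R 4.3.3) with TMM factors, filterByExpr (minimum count 10) and the two-sided quasi-likelihood test. A gene passed at a Benjamini-Hochberg adjusted p under 0.05. Kidney against liver and the differences between tissues came from joint fits. Ratios used exact two-sided permutation tests of log2 ratios with 0.5 added to each count. CPM refer to all gene counts of a library. On simulated counts edgeR recovered 61 of 100 genes changed 2-fold and 91 of 100 changed 4-fold for kidney age (7 false calls), 86 and 94 for kidney with 3C, 34 and 93 for liver age, 67 and 94 for liver with 3C, and 82 and 92 for fibroblasts. Alternatives were RLE and upper quartile factors, no filter, a mean of at least 1 CPM, DESeq2 1.42.0, a fold above 2, a replicate block and dropping libraries 1 by 1. Same-numbered libraries deviated together for young kidney and young liver (r 0.21 to 0.66) and for kidney and liver with 3C (r 0.17 to 0.29), from the data, since the labels do not tie the numbers. Libraries of a group were distinct (54 pairs; counts differed by at least 7.78 times the sampling variance).

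Named were all 10 genes, up to 4 passing pathway genes per direction and comparison, and the 3 genes most like each member, without predicted genes (Gm, Rik names); those for Slc20a2 are not reported here. Start sites and exon lengths came from GENCODE vM21, where 24534 of 24984 names were found. Promoters came from RefSeq (GRCm38.p6); 250 bases were searched. Repeated intervals of a peak list counted as 1 peak.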

Additional observations from a re-analysis of the deposited data

Results flagged for a closer look

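In 53 sets of 4 libraries (a gene in a group, with a mean of at least 10 counts), 3 held a library farther from the others than Dixon's 95% limit allows; chance gives about 1 in 20 such sets. Kl stood at 534 CPM in old kidney replicate 2, above 340 to 371 CPM in the other old kidneys, and this is the library with hepatocyte transcripts. Fgfr1 stood at 10.3 CPM in liver replicate 1 with 3C, above 3.29 to 3.53 CPM in the others. Slc20a1 stood at 71.2 CPM in the same library, above 17.3 to 22.0 CPM.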

How the results depend on the processing

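Kl kept its direction and its call in old kidney in all 14 alternatives of the test (log2 fold change -1.21 to -0.998). At -0.998 a fold above 2 was not met. Slc34a1 kept its direction and passed in 11 of 14, and it did not pass with a replicate block (adjusted p 0.0672), nor did Stc1 (0.0675) and Cldn19 (0.0654). With age in kidney 1 of the 10 genes passed with a fold above 2 or with the replicate block, and 1 to 3 without 1 library. With DESeq2, 1 of the 10 passed in kidney with 3C. In fibroblasts 0 passed with a fold above 2. The pathway count in old kidney was 3 with a fold above 2, 13 with DESeq2 and 2 to 14 without 1 library; with 3C in kidney it was 2 with DESeq2. For liver age it was 1 without a filter, 2 with DESeq2, 1 with the replicate block and 0 to 3 without 1 library. In fibroblasts it was 1 with a fold above 2, 4 without a filter, 4 with DESeq2 and 0 to 2 without 1 library. Cyp27a1 in fibroblasts did not pass in edgeR with the replicate block (adjusted p 0.0683). Over all genes edgeR and DESeq2 called 1669 and 3064 with age in kidney, 309 and 882 with age in liver, 0 and 221 with 3C in kidney, 0 and 7 with 3C in liver, 567 and 1016 in fibroblasts, and 258 and 733 in the difference of the age effects. The cause of these shifts was not tested.

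Values that did not pass turned sign as follows. Slc20a2 with age in kidney was -0.0079 with RLE factors and -0.012 with DESeq2, and -0.089 to 0.086 without 1 library. With 3C in liver Fgfr1 was -0.023 with upper quartile factors and -0.085 with the replicate block (-0.53 to 0.29 without 1 library), Slc20a2 was -0.024 with upper quartile factors (-0.098 to 0.10) and Slc20a1 -0.53 to 0.48 without 1 library. In the difference between tissues with 3C, Fgfr1 was 0.030 with the replicate block (-0.33 to 0.49 without 1 library), Slc20a1 -0.57 to 0.42 and Slc20a2 -0.050 to 0.16, and with age Slc20a2 was -0.027 to 0.25. Without 1 library Slc20a1 was -0.021 to 0.073 with age in kidney, -0.17 to 0.017 with 3C in kidney and -0.11 to 0.38 in kidney against liver with DMSO. Cyp27b1 was -0.71 to 0.19 with age and -0.22 to 0.36 with 3C in kidney, and Fgfr1 -0.050 to 0.22 in fibroblasts. The log2 ratio of Cyp24a1 to Cyp27b1 with age was -0.98 to 0.55, and that of Slc20a1 to Slc20a2 -0.031 to 0.16.

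With 250 bases around the start 7 genes had a peak in all young and 6 in all old kidney libraries, and at −log10 q values from 5 up the counts were 8 and 7 in kidney and 3 and 3 in young and old liver. In young and old liver they were 5 and 4 with 250 bases, and also with the same number of top peaks. The median log2 fold change of all genes in young kidney against liver was 0.11 with TMM and 0.23 with upper quartile factors. Same-numbered libraries did not all deviate together within any tissue or in the fibroblasts, and the block changed no other call of the 10 genes, kidney against liver included. Cyp27b1, with 16 to 119 counts in untreated kidney, limits what can be seen for the activating enzyme.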
